A study of Mus musculus with 64 samples.

Results

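The genes of the synaptic vesicle and of its release machinery were followed in brain tissue of Cyfip2+/R87C mice, in the frontal cortex and the hippocampus. These knock-in heterozygotes (KI) carry an Arg87Cys change in 1 copy of Cyfip2, an actin regulator of the WAVE complex, and model West syndrome, an infantile epilepsy. They were compared with wild-type (WT) littermates on the same C57BL/6N background at postnatal week (PWK) 1, 7, 14 and 28, with 4 libraries in each of 16 groups of genotype, age and region (64 libraries). RNA came from bulk tissue, so that every cell type of a region contributed to a value. The study followed such mice from neonatal spasms through a seizure-free juvenile period into adulthood with recurrent seizures. The genes were listed by name and role, with earlier results of these data known. The list of 36 symbols was matched through Ensembl gene IDs to the 18432 genes of the table, and all 36 were found. Values are normalized counts, that is, estimated read counts that the authors had scaled to make libraries comparable.

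Transmitter release runs in a cycle. Vesicles tethered to the actin network by synapsins are filled with glutamate by the vesicular transporters Slc17a7 (VGLUT1) and Slc17a6 (VGLUT2), and dock at the active zone, where the scaffolds Bassoon, Piccolo and RIM and the priming factors of the Unc13 (Munc13) family make them ready to fuse. Fusion is carried out by the SNARE proteins synaptobrevin, SNAP-25 and syntaxin, is timed by synaptotagmins that sense calcium and by complexins that hold the SNAREs in check, and is followed by SNARE disassembly by Nsf and by endocytosis through amphiphysin, dynamin and endophilin. Cortical and hippocampal excitatory neurons rely mainly on Slc17a7, whereas thalamic afferents use mainly Slc17a6.

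The promoters of 4 genes called between the genotypes in the cortex at PWK 28 are shown, 2 that rose (Syn2 and Slc17a7) and 2 that fell (Stx1a and Unc13a). They were chosen after their values were seen and are not the 4 largest shifts. Amph, whose listed promoter window overlaps its gene model, and Slc17a6 are not printed. Each line gives the 250 bases before the transcription start, 5′ to 3′ on the strand of the gene, from RefSeq on GRCm38.p6, with motif matches in capitals.
Syn2, chr6:115134652-115134901, plus strand: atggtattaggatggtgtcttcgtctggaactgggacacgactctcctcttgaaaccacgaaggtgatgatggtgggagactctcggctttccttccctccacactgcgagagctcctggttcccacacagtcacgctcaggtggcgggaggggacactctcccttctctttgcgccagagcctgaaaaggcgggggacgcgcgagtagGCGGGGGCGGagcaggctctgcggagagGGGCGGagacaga
Slc17a7, chr7:45163671-45163920, plus strand: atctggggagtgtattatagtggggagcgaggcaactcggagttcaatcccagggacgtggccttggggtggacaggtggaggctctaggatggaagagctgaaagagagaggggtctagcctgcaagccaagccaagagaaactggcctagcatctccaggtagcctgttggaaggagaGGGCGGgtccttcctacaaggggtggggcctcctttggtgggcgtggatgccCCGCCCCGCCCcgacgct
Stx1a, chr5:135023232-135023481, plus strand: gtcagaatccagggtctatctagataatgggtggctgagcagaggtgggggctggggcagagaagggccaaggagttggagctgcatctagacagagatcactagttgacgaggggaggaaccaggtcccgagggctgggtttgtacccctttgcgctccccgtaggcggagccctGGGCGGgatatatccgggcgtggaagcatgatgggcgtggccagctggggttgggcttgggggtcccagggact
Unc13a, chr8:71671758-71672007, minus strand: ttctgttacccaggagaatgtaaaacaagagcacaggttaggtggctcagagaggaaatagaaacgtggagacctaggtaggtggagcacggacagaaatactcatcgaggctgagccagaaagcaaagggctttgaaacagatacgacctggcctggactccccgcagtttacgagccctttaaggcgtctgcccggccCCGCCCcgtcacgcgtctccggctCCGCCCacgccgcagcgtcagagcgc
The capitals mark GC boxes (GGGCGG, searched on both strands) and, in Syn2, 1 EGR site (GCGGGGGCG) that overlaps a GC box. Of the 36 genes, 29 had an entry in the promoter table, and Syn3, Syt4, Syt5, Syt7, Vamp2, Snap25 and Rims2 had none. A GC box was present in 19 of the 29 (65.5%) and in 33% of all 27025 promoters of this length. A TATA box (TATAAA) was present in 1 of the 29, Sv2b (3.45%), and in 13% of all promoters. The CRE (TGACGTCA) was found in Syn1 and Sh3gl2, the E-box (CACGTG) in Nsf, Cplx3 and Unc13b, and the EGR site in Syn2 and Sh3gl2, where 1.60%, 6.04% and 2.55% of all promoters held them. The AP-1 motif (TGANTCA) was in none of the 29 and in 6.85% of all promoters. These matches describe letters in the sequence and were not tied to the expression values.

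Library totals of the normalized values ran from 29.2 to 32.6 M, of which the 36 genes took between 1.26% and 2.19%. One library stood apart from its group, hippocampus KI replicate 1 at PWK 14, with a mean correlation of 0.967 with the other libraries of its group, where the next lowest value of the 64 was 0.977. Its astrocyte markers (6 genes) summed to 195819, against a highest value of 87361 in the other 3 KI libraries and 47727 in WT. The calls at PWK 14 in hippocampus, and the values that it moved most, are therefore given with and without it. Markers of neurons, which included Map2 and Rbfox3, were present in every group, and no marker was at 0 in a whole group. The edited gene itself, Cyfip2, was at 25727 ± 3577 in KI and 34726 ± 608 in WT in the cortex at PWK 28 (limma log2 fold change -0.44, adjusted p = 0.0058), and it did not pass the test in the other 7 genotype comparisons (adjusted p from 0.0539 to 0.908). In bulk tissue, fewer cells of a type and less RNA per cell cannot be told apart.

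Per kilobase of exon, the release genes spanned a wide range in WT mice at PWK 7. In cortex the highest was Snap25, the plasma membrane SNARE that anchors the fusion complex at the terminal, at 10888 normalized counts per kb. It was followed by Vamp2 (8087), the main synaptobrevin of forebrain vesicles, Slc17a7 (8030.3), Cplx1 (7826), Cplx2 (7626) and Syt1 (7205), the fast calcium sensor. The lowest were Unc13b (124), Sv2c (96.4), Slc17a6 (62.0) and Syn3 (37.1). In hippocampus Cplx2 led with 9393 per kb, ahead of Snap25 (7193) and Slc17a7 (7183), and Syn3 was again the lowest at 22.4. The genes at the bottom of this order included several that shifted most between the genotypes, Sv2c, Slc17a6 and Syn3. Of the genes with high levels, Snap25, Vamp2, Syp and Rab3a passed the test in none of the 8 genotype comparisons. Slc17a7, Cplx1, Cplx2 and Syt1, also near the top, were called in some of them.

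The genotypes were compared at each age in each region with limma on log2(value + 1), with Benjamini-Hochberg adjustment over all genes tested. A gene is called when its adjusted p is under 0.05. At the earlier ages, PWK 1 and PWK 7, none of the 36 genes was called in either region. Among all genes, the share called was 0.00546% and 0.00545% in the cortex at PWK 1 and PWK 7, and 0.0109% and 0.0218% in the hippocampus. At an unadjusted p under 0.05 there were 0, 2, 3 and 0 of the 36 genes in the same order, beside 5.27%, 8.05%, 5.46% and 6.22% of all genes. The smallest adjusted p of a release gene (limma) was 0.908, 0.414, 0.838 and 0.81. The genes at an unadjusted p under 0.05 were Syt2 (log2 difference 0.35) and Syt3 (0.11) in the cortex at PWK 7, and Nsf (0.16), Unc13b (-0.12) and Bsn (0.07) in the hippocampus at PWK 1. No difference among them passed the adjustment. From PWK 14 on, genes were called in both directions in both regions. The 8 genotype comparisons use different mice at each age, but the interactions described further on reuse the same libraries.

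**Figure D1:**
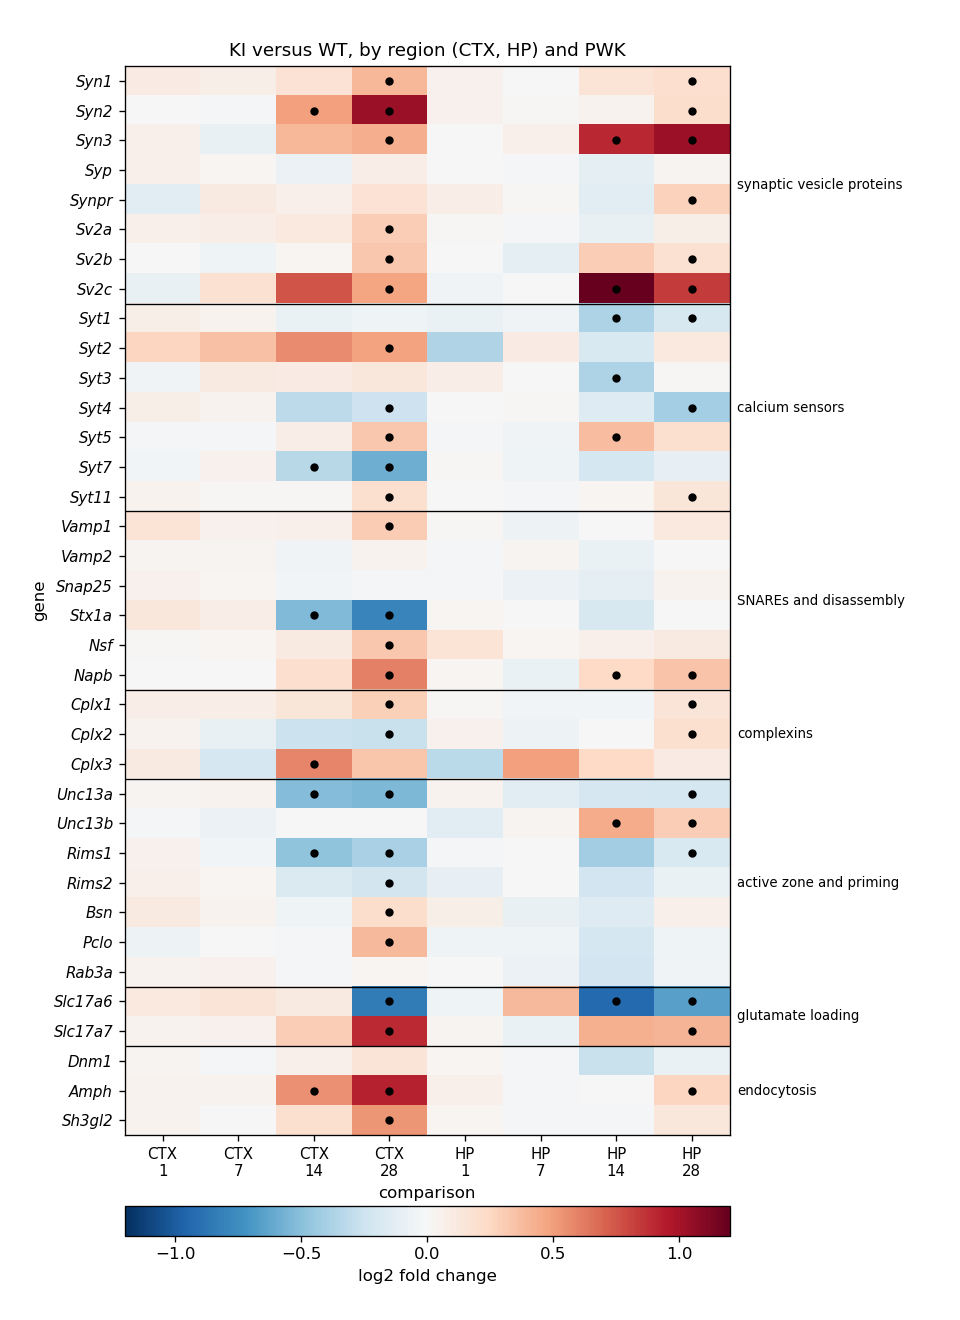
Log2 fold changes of KI against WT (colour scale, log2) for the 36 release genes (rows, grouped by role) in cortex (CTX) and hippocampus (HP) at PWK 1, 7, 14 and 28 (columns, 4 KI and 4 WT libraries each). Dots mark genes called at an adjusted p under 0.05. No dot stands at PWK 1 or 7, and the largest number of dots, 26, is in the cortex at PWK 28.

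In the cortex at PWK 14, 3 of the 36 genes were higher in KI mice and 4 were lower, where 2.48% and 2.70% of all genes were called in these directions. The median log2 fold change was 0.06 for the 36 genes and -0.002 for all genes. By PWK 28 the counts were 18 higher and 8 lower, beside 12.2% and 10.0% of all genes, with medians of 0.20 and -0.003. The median of the 36 genes at PWK 14 was 0.09 when every library was scaled to the same total, where that of all genes was 0.03. In 1 fit of all 64 libraries 7 genes were higher and 6 lower, and the shares above are not those of this fit. Marker sums of other cells in the same tissue also differed without overlap at PWK 14. Those of GABA neurons (5 genes) were 21801 to 29630.3 in KI and 17179 to 18893 in WT (3 called higher and 1 lower), and those of endothelium (4 genes) 2382 to 2769 and 3548 to 3923 (2 called lower and 0 higher). Their part in the values of the release genes was not tested. The higher genes at PWK 28 were led by Syn2, Amph and Slc17a7, which act on the vesicle pool, its recycling and its filling. The lower ones were led by Slc17a6, Stx1a, Syt7 and Unc13a, which act in glutamate loading, fusion, calcium sensing and priming.

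Of the 8 vesicle proteins, 6 rose and 0 fell in the KI cortex at PWK 28, beside 12.2% and 10.0% of all genes. Of these, 1, Syn2, had also risen at PWK 14. Synapsin 2 (chromosome 6, 115134902 to 115282006, plus strand), which ties vesicles into the reserve pool, was at 30207, 23676, 32986 and 31419 in the 4 KI libraries at PWK 28 and at 13139, 14336, 15172 and 14839.7 in the 4 WT libraries. Every KI library exceeded every WT library, and the mean rose from 14372 ± 891 to 29572 ± 4092 (SD, n = 4; limma log2 fold change 1.03 ± 0.10, adjusted p = 0.00019; SE after ±). At PWK 14 it was at 21837 ± 3496 in KI and 15436 ± 1452 in WT (limma log2 fold change 0.49 ± 0.11, adjusted p = 0.0252). The other synapsins rose less at PWK 28, Syn1 from 15679.8 ± 1157 to 20644 ± 651 and the scarce Syn3 from 445 ± 13.7 to 603 ± 58.0. All 3 members of the SV2 family of vesicle glycoproteins, one of which (Sv2a) is the binding site of the antiseizure drug levetiracetam, rose as well, with log2 fold changes of 0.30 for Sv2a, 0.32 for Sv2b and 0.47 for Sv2c. Synaptophysin (Syp), an abundant vesicle membrane protein, was at 33942 ± 537 in KI and 32161 ± 1193 in WT, a log2 difference of 0.08 with a 95% interval of -0.03 to 0.19, and its relative synaptoporin (Synpr) was at 3777 ± 635 and 3429.7 ± 1057. Neither was called.

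Sv2c is abundant in the striatum, and striatal markers moved with it. In the cortex at PWK 14 its 4 KI libraries were at 2272, 3073, 1121 and 1203 and the WT libraries at 1029, 1047, 1150.1 and 932. The summed level of 6 striatal markers in the same KI libraries was 10185, 16548, 5899 and 5642, against 3940.4 to 5057 in WT, so that the KI libraries with the highest Sv2c also had the highest striatal sum. Sv2c was not called at PWK 14 (log2 difference 0.76, limma adjusted p = 0.138). At PWK 28 the striatal sum was 8907 to 11038 in KI and 4512 to 9152 in WT, with 1 of 6 markers called higher and 0 lower, and the part of this in the Sv2c result was not tested. The summed level of 8 markers of neurons in general was also higher in the KI cortex at PWK 28, at 126130 to 134779 in KI and 111017 to 119387 in WT. Of these 8, 2 were called higher and 1 lower, beside 12.2% and 10.0% of all genes. Those of GABA neurons (5 genes) summed to 28107 to 42444 and 20274 to 26204 (3 called higher and 1 lower). Markers of CA1 and CA3 pyramidal cells (4 genes) summed to 7942 to 11860.2 in KI and 6741 to 7175 in WT (2 called higher and 0 lower). No marker of these lists was at 0, and their part in the changes of the release genes was not tested.

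The synaptotagmins, the calcium sensors of release, moved in opposite directions. Of the 7 measured, 3 were higher and 2 lower in the KI cortex at PWK 28, beside 12.2% and 10.0% of all genes. Syt7, which supports slow, asynchronous release and vesicle replenishment, fell from 11192 ± 543 to 7483 ± 1001 (limma log2 fold change -0.59 ± 0.08, adjusted p = 0.00121), and it was lower at PWK 14 as well, at 10897 ± 942 against 13732 ± 372 (log2 fold change -0.34 ± 0.06, adjusted p = 0.0162). Syt4 fell by a smaller amount at PWK 28, with a log2 fold change of -0.24. The higher ones were Syt2 (2231 ± 314 against 1603 ± 316), the fast sensor of many inhibitory terminals, Syt5 (5012 ± 341 against 4013 ± 457) and Syt11, which does not bind calcium (24308 ± 1378 against 21272 ± 528). The fast sensor of excitatory terminals, Syt1, was at 56008 ± 3564 in KI and 58092 ± 3382 in WT, a log2 difference of -0.05 with a 95% interval of -0.20 to 0.09. It was not called, nor was Syt3, a sensor of high calcium affinity (0.13).

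Among the 6 SNAREs and disassembly factors, 3 rose and 1 fell at PWK 28, beside 12.2% and 10.0% of all genes. The one that fell was Stx1a (chromosome 5, 135023482 to 135051100, plus strand), the syntaxin of the plasma membrane, which had already fallen at PWK 14. At PWK 14 its KI libraries were at 4593, 5666, 7543 and 7292 and its WT libraries at 9265, 8934, 8269 and 9027 (limma log2 fold change -0.53 ± 0.13, adjusted p = 0.0469). The KI libraries were all lower than the WT libraries. At PWK 28 the KI values were 3256, 5896, 3777 and 4002 and the WT values 6983, 8021, 6960.3 and 6706 (log2 fold change -0.79 ± 0.15, adjusted p = 0.00466). The groups again did not overlap, and KI replicate 2 was the nearest to WT. Of the other SNAREs of the complex, Snap25 and Vamp2 were not called. Snap25 was at 77595 ± 3469.8 in KI and 78523 ± 4039.7 in WT (95% interval of the log2 difference -0.15 to 0.12) and Vamp2 at 30292 ± 1409 and 29387 ± 1188 (-0.08 to 0.16). Napb, the brain form of SNAP that recruits Nsf to spent SNARE complexes, rose from 17289.5 ± 1262 to 26382 ± 2591 (limma log2 fold change 0.61 ± 0.08, adjusted p = 0.000771). Nsf, the ATPase that takes the complexes apart, rose from 25169.5 ± 1618 to 31498 ± 1868 and Vamp1, the synaptobrevin of fast-spiking and hindbrain neurons, from 3829 ± 442 to 4731 ± 393.

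The complexins, clamps and facilitators of SNARE fusion, differed among themselves. Cplx1 rose at PWK 28 from 16560 ± 496 to 20243 ± 979 (limma log2 fold change 0.29 ± 0.05, adjusted p = 0.00373), whereas Cplx2, the form of most excitatory neurons, fell from 33122 ± 1702 to 27636 ± 3166 (log2 fold change -0.27 ± 0.08, adjusted p = 0.0339). Cplx3, a marker of deep cortical and subplate neurons, was called at PWK 14, when its KI libraries were at 536, 743, 541 and 553 and its WT libraries at 403, 320.1, 364 and 495 (log2 fold change 0.59 ± 0.14, adjusted p = 0.0408). KI replicate 2 was the highest of these, and the groups did not overlap. At PWK 28 Cplx3 was at 565 ± 108 and 445 ± 64.1 and was not called.

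At the active zone, the priming gene Unc13a and the RIM gene Rims1 fell, while the scaffold gene Pclo rose. Of 7 genes, 2 were higher and 3 lower at PWK 28, beside 12.2% and 10.0% of all genes. Unc13a (chromosome 8, 71624417 to 71671757, minus strand), which encodes Munc13-1, the priming factor of most forebrain synapses, was at 12269, 10581, 12174 and 11509 in the KI cortex and 17087, 16647, 16046 and 16705 in the WT cortex at PWK 14. The groups did not overlap, and the reduction was 30.1% (limma log2 fold change -0.52 ± 0.06, adjusted p = 0.00157). At PWK 28 it was at 10500.5 ± 768 and 15242 ± 755 (log2 fold change -0.54 ± 0.06, adjusted p = 0.000507). Rims1, which links Munc13 and calcium channels to the vesicle, fell from 9427 ± 838 to 6749 ± 547 at PWK 14 and from 8355 ± 358 to 6410.0 ± 788 at PWK 28, with log2 fold changes of -0.48 and -0.39. Rims2 fell at PWK 28 (-0.22). In contrast, Pclo and Bsn, the giant scaffolds Piccolo and Bassoon, rose at PWK 28, Pclo from 10251 ± 215 to 13452 ± 676 (log2 fold change 0.39 ± 0.05, adjusted p = 0.000734) and Bsn from 18910 ± 239 to 21939 ± 1813 (log2 fold change 0.21). The calls of Rims2 and Bsn were lost when some single libraries were left out. Unc13b, the Munc13-2 paralogue, was at 2799.7 ± 391 and 2791 ± 95.7, and the vesicle GTPase Rab3a at 12327 ± 444 and 12154 ± 974. Neither was called.

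The 2 vesicular glutamate transporters moved apart. Slc17a7 (chromosome 7, 45163949 to 45176142, plus strand) was at 77637, 56223, 76040.1 and 72696 in KI and 34746, 40205, 38354 and 37817 in WT in the cortex at PWK 28 (limma log2 fold change 0.89 ± 0.10, adjusted p = 0.000367). Every KI library was higher than every WT library. At PWK 14 it was at 57578 ± 11517 in KI and 46250.3 ± 1505 in WT, which was not called. Slc17a6 (chromosome 7, 51622006 to 51671119, plus strand), at much lower levels in this tissue, was at 246, 384, 236 and 253 in KI and 558, 437, 449 and 533 in WT at PWK 28. All 4 KI libraries were lower than all WT libraries (log2 fold change -0.84 ± 0.16, adjusted p = 0.00461), and the highest KI value was that of replicate 2. Thalamic markers (5 genes), which would mark included thalamic tissue, summed to 2242 to 3134 in KI and 2909 to 3566 in WT, with 0 called higher, 0 called lower and none at 0. Their part in the Slc17a6 result was not tested.

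Genes of endocytosis rose or were not called. Amphiphysin, encoded by Amph (chromosome 13, 18948205 to 19150921, plus strand), which bends the membrane and recruits dynamin, was at 11697, 9578, 8595 and 8463 in the KI libraries and 6809.5, 6913, 6036 and 6200.5 in the WT libraries at PWK 14 (limma log2 fold change 0.55 ± 0.10, adjusted p = 0.0114). At PWK 28 the KI values were 12243, 10963, 13513 and 12734 and the WT values 5982, 6539, 6896 and 6661 (log2 fold change 0.92 ± 0.07, adjusted p = 6.68e-05). The groups were apart at both ages, and the mean at PWK 28 was 1.89-fold that of WT on the fitted scale. Sh3gl2, which encodes endophilin A1, rose from 10054 ± 829.6 to 14456 ± 681 at PWK 28 (log2 fold change 0.53 ± 0.07, adjusted p = 0.000689), and dynamin 1 (Dnm1), which cuts the vesicle neck, was at 34647 ± 2205 and 31068 ± 1367 and was not called.

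**Figure D2:**
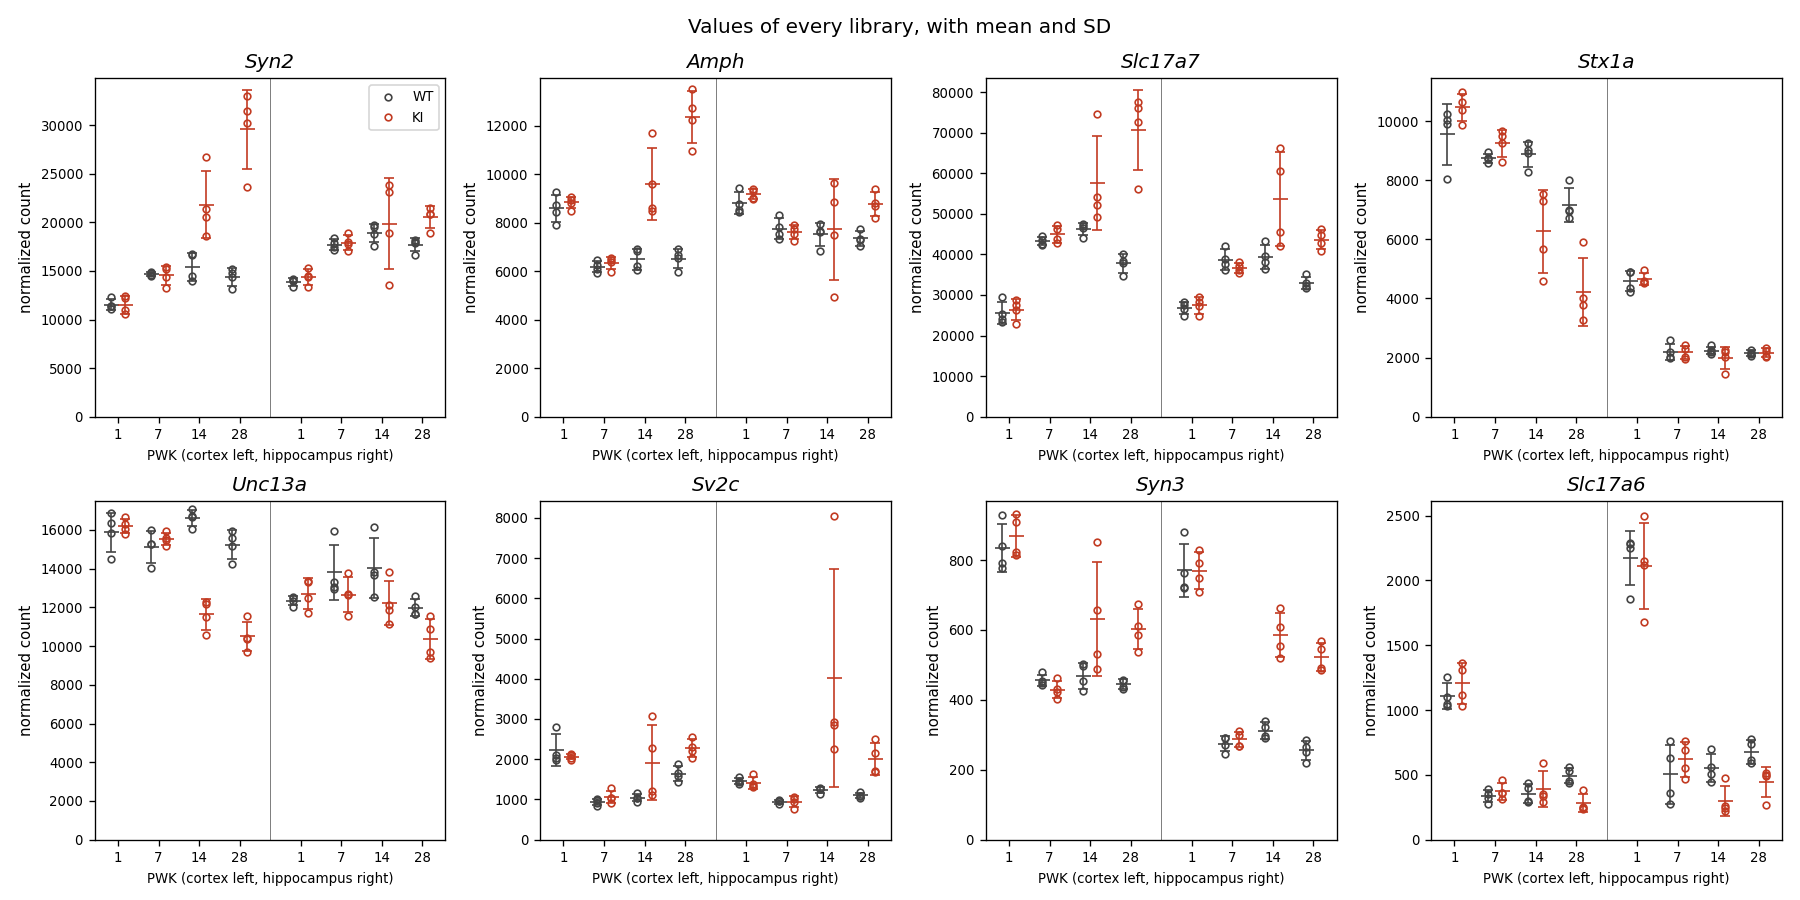
Normalized counts (vertical axes, linear from 0) of 8 release genes in every library by PWK, cortex on the left and hippocampus on the right of each panel, with WT in grey and KI in red. Circles are libraries and bars the mean ± SD (n = 4). Syn2, Amph and Slc17a7 are higher and Stx1a, Unc13a and Slc17a6 lower in the KI cortex at PWK 28, Syn3 is higher in the KI hippocampus at PWK 14 and 28, and the single Sv2c point at 8045 is the library that stood apart.

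When 1 library at a time was left out, 3 of the 7 calls at PWK 14 in cortex (Amph, Unc13a and Rims1) and 18 of the 26 at PWK 28 passed in every fit. With the number of libraries whose omission ended the call and the highest adjusted p (limma) of these fits, the calls that were lost were Syt7 (without 3, 0.0605), Syn2 (without 4, 0.0765), Stx1a (without 5, 0.129) and Cplx3 (without 6, 0.109) at PWK 14, and Syt5 (without 3, 0.0593), Syt2 (without 4, 0.0743), Syt4 (without 4, 0.0843), Rims2 (without 5, 0.0722), Syt11 (without 5, 0.0758), Vamp1 (without 5, 0.0913), Cplx2 (without 6, 0.0928) and Bsn (without 7, 0.0939) at PWK 28. Some fits at PWK 14 also called genes that the fit of all 8 libraries did not, namely Cplx2 without KI replicate 1 (-0.33, adjusted p = 0.0201), Syt2 without KI replicate 3 (0.75, adjusted p = 0.00477) and Syt4 without KI replicate 3 or WT replicate 4 (adjusted p = 0.0481 and 0.0473).

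In the hippocampus at PWK 14, 5 of the 36 genes were higher in KI mice and 3 were lower, beside 7.64% and 7.95% of all genes, and the median log2 fold change was -0.08 for the 36 genes and 0.01 for all genes. Without the library that stood apart, 7 were higher and 4 lower, and the median of the 36 genes was 0.002, so that the lower median rested on that library. A correction for GC content and length gave a median of -0.15 (-0.07 for all genes) with 3 higher and 4 lower. In 1 fit of all 64 libraries, 8 were called higher and 10 lower. At PWK 28 there were 13 higher and 5 lower, beside 8.92% and 6.91%, with medians of 0.10 and 0.004. The median of the 36 genes was 0.06 with the same total in every library, where that of all genes was -0.04. With the GC content and length correction it was 0.07, where that of all genes was -0.03. The higher genes numbered 8 with that correction and 8 in the fit of all 64 libraries. The shares of all genes given above are not those of these other fits. Syn3 and Sv2c had the largest increases at PWK 28, and Slc17a6 and Syt4 the largest decreases. Astrocyte markers (6 genes) were higher in the same KI tissue, with sums of 76077 to 195819 in KI and 43236 to 47727 in WT at PWK 14 and of 74481 to 86362 and 45145 to 46791 at PWK 28 (3 and 3 of 6 called higher, none lower). Gfap, the filament of reactive astrocytes, had limma log2 fold changes of 2.75 (adjusted p = 0.00129) and 2.00 (adjusted p = 3.35e-07). Other marker sums differed without overlap as well. At PWK 14 those of CA1 and CA3 pyramidal cells (4 genes) were lower in KI, at 13394 to 15603 against 16830.4 to 18155 (1 called lower and 0 higher), as were those of cortex (4 genes), at 2717 to 3815 against 3833 to 4929.7 (2 called lower and 0 higher). At PWK 28 the sums of neurons (109580 to 115445 against 100533 to 106264, 2 of 8 called higher), GABA neurons (20049 to 22898 against 16454 to 18254, 2 of 5) and microglia (9371 to 9797 against 7449 to 8502, 3 of 6) were higher in KI, with no marker of the 3 lists called lower. The part of these marker changes in the values of the release genes was not tested.

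Vesicle proteins were again mostly higher or not called. Syn3 (chromosome 10, 86055125 to 86498896, minus strand), the synapsin of developing neurons and of adult dentate gyrus, was at 519.6, 662, 608 and 554 in KI and 297, 289.7, 321 and 341 in WT at PWK 14 (limma log2 fold change 0.90 ± 0.10, adjusted p = 0.0011). At PWK 28 it was at 567, 546, 486 and 490.0 and 251, 265, 219.7 and 286 (log2 fold change 1.03 ± 0.10, adjusted p = 0.000105). At both ages every KI library was above every WT library, and the level in KI mice was 2.04-fold that of WT at PWK 28. Sv2c (chromosome 13, 95954594 to 96132577, minus strand) was at 8045, 2932, 2838 and 2246 in KI and 1295, 1137, 1253 and 1256 in WT at PWK 14 (log2 fold change 1.5 ± 0.33, adjusted p = 0.0157). The first of these KI values came from the library that stood apart, and without it the log2 fold change was 1.10, adjusted p = 0.000208. The call was lost (adjusted p = 0.0511) without WT replicate 2. At PWK 28 Sv2c was at 2142, 2498, 1695 and 1680.2 in KI and 1192, 1094, 1091 and 1047 in WT (log2 fold change 0.84 ± 0.11, adjusted p = 0.000865), with no overlap. Striatal markers summed to 1900.3 to 4949.9 in KI and 1715 to 3118 in WT at PWK 14, with the lowest KI sum in the library with the highest Sv2c, and to 3318 to 4509 and 2069 to 2848 at PWK 28. At each age 2 of the 6 were called higher, none was called lower or was at 0, and their part in the Sv2c result was not tested.

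At PWK 28, 6 of the 8 vesicle proteins rose and 0 fell, beside 8.92% and 6.91% of all genes. Besides Syn3 and Sv2c these were Synpr (4379 ± 351 against 3608 ± 111), a vesicle protein of mossy fibre terminals, Syn2 (20543 ± 1135 against 17707 ± 699), Syn1 (log2 fold change 0.20) and Sv2b (0.18). Syp (0.03) and Sv2a (0.07) were not called. At PWK 14 the calls among vesicle proteins were Syn3 and Sv2c.

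The calcium sensors fell in part. Syt1 was at 32178, 38278, 39642 and 37469 in KI and 47016, 46542, 48636 and 48558 in WT at PWK 14, with all KI libraries lower (limma log2 fold change -0.37 ± 0.08, adjusted p = 0.0158). The lowest was the library that stood apart, and without it the log2 fold change was -0.31, adjusted p = 0.00702. At PWK 28 Syt1 fell from 47792 ± 2086 to 41711 ± 2137 (log2 fold change -0.20 ± 0.05, adjusted p = 0.0212). The difference between the KI effects of the 2 ages, 0.18, was not called (limma interaction test, adjusted p = 0.455). Syt3 was at 1407, 1696, 1419 and 1409.9 in KI and 2006, 2048, 1549 and 2111 in WT at PWK 14 (limma log2 fold change -0.37 ± 0.11, adjusted p = 0.0443), and the call was lost without the library that stood apart (-0.35, adjusted p = 0.0637). At PWK 28 Syt3 was at 1742 ± 192 and 1712 ± 45.1. Syt4, found on dense core vesicles, was at 4071, 4095, 4178 and 4555 in KI and 5564, 5872, 5167 and 5859.9 in WT at PWK 28 (log2 fold change -0.41 ± 0.05, adjusted p = 0.000784), with no overlap. Syt5 rose at PWK 14 from 2614 ± 227 to 3366 ± 193 (log2 fold change 0.37 ± 0.07, adjusted p = 0.0112), and Syt11 rose at PWK 28 (log2 fold change 0.14). Syt2 and Syt7 were called at neither age, with log2 differences of -0.18 and -0.21 at PWK 14 (-0.002 and -0.08 without the library that stood apart) and 0.12 and -0.09 at PWK 28.

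SNAREs of the core complex were not called in the hippocampus. The log2 differences at PWK 28 were 0.12 for Vamp1, 0.01 for Vamp2, 0.04 for Snap25 and -0.001 for Stx1a, with a 95% interval of -0.13 to 0.13 for Stx1a. Napb rose at both ages, from 16148 ± 178 to 19138 ± 1497 at PWK 14 and from 15199 ± 488 to 19279 ± 339.8 at PWK 28 (limma log2 fold change 0.34 ± 0.04, adjusted p = 0.000255), and Nsf was not called (0.10 at PWK 28). Of the complexins, Cplx1 and Cplx2 rose at PWK 28, with log2 fold changes of 0.15 and 0.19, and Cplx3, at 176 ± 41.3 in KI and 163 ± 33.7 in WT, was not called.

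At the hippocampal active zone Unc13b, the Munc13-2 gene, rose from 2238 ± 141 to 3046 ± 310.2 at PWK 14 (limma log2 fold change 0.44 ± 0.08, adjusted p = 0.00787) and from 2292 ± 73.3 to 2815 ± 189.8 at PWK 28 (log2 fold change 0.29 ± 0.05, adjusted p = 0.00466). The main priming gene Unc13a fell at PWK 28 from 11986 ± 447 to 10376 ± 1028 (log2 fold change -0.21 ± 0.06, adjusted p = 0.0464), and Rims1 fell by a similar amount (-0.18). Rims2, Bsn, Pclo and Rab3a were not called at either age. Their log2 differences ran from -0.23 to -0.15 at PWK 14 (from -0.14 to 0.004 without the library that stood apart) and from -0.08 to 0.06 at PWK 28.

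The glutamate transporters moved apart in the hippocampus as well. Slc17a6 was at 224, 241, 259 and 474 in KI and 508, 559.6, 700.2 and 449 in WT at PWK 14 (limma log2 fold change -0.94 ± 0.23, adjusted p = 0.0266). The groups overlapped, because KI replicate 4 exceeded WT replicate 4. At PWK 28 the KI values were 500.3, 269, 495 and 515 and the WT values 612, 775, 589 and 739.8 (log2 fold change -0.65 ± 0.19, adjusted p = 0.0397), with no overlap and with replicate 2 far below the other KI libraries. Thalamic markers (5 genes) summed to 1744 to 2518 in KI and 2522 to 3247 in WT at PWK 14 and to 2192 to 2491 and 2754 to 3196 at PWK 28, with 1 and 1 of 5 called lower and none higher, and their part in the Slc17a6 result was not tested. Slc17a7 rose from 32969 ± 1486 to 43626 ± 2325 at PWK 28 (log2 fold change 0.40 ± 0.05, adjusted p = 0.000471). At PWK 14 it was at 53655 ± 11631 and 39317 ± 2988 and was not called with all libraries, but was called without KI replicate 1 (0.53, adjusted p = 0.0163). Of the endocytosis genes, Amph rose at PWK 28 from 7344 ± 301 to 8758 ± 491 (log2 fold change 0.25 ± 0.05, adjusted p = 0.00622), and Sh3gl2 (0.14) and Dnm1 (-0.08) were not called.

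Without KI replicate 1, the hippocampus at PWK 14 had 7 release genes higher and 4 lower. Sv2b (0.37, adjusted p = 0.0373), Slc17a7, Syt4 (-0.32, adjusted p = 0.0232) and Rims1 (-0.27, adjusted p = 0.0139) were then called by limma in addition, and Syt3 was not. The log2 fold changes of the other calls were 0.96 for Syn3, 0.38 for Syt5, 0.27 for Napb, 0.38 for Unc13b and -0.82 for Slc17a6. Among genes called in neither fit, Stx1a went from -0.19 to -0.05, Synpr from -0.14 to 0.001, Syn2 from 0.04 to 0.21, Amph from -0.003 to 0.20 and Sh3gl2 from -0.03 to 0.15. When each library was left out in turn, Syn3, Syt5 and Unc13b passed in every fit at PWK 14. The other calls were lost in some fits, namely, with the number of libraries and the highest adjusted p (limma), Sv2c (without 1, 0.0511), Syt1 (without 1, 0.0518), Slc17a6 (without 5, 0.0723), Napb (without 6, 0.099) and Syt3 (without 6, 0.12). The library that ended the Syt1 call was WT replicate 1. At PWK 28, 10 of the 18 calls passed in every fit, and the others were Syn1 (without 2, 0.0632), Cplx2 (without 2, 0.0755), Syt1 (without 3, 0.0629), Slc17a6 (without 4, 0.101), Cplx1 (without 5, 0.0734), Rims1 (without 6, 0.115), Syt11 (without 6, 0.104) and Unc13a (without 6, 0.119). For Syn1 and Cplx2 the libraries were WT replicates 1 and 4. Genes called at PWK 28 in 1 such fit alone were Sh3gl2 without KI replicate 1 (0.17, adjusted p = 0.0421), and Syt5 (0.25, adjusted p = 0.0203) and Vamp1 (0.18, adjusted p = 0.0332) without KI replicate 2.

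Whether the KI effect differed between the regions was tested with an interaction term in the 16 libraries of an age, which were treated as independent. At PWK 28 it differed for 9 of the 36 genes, where 4.57% of all genes were called. For 5 genes the effect was more positive in cortex. The hippocampal minus the cortical effect was -0.82 ± 0.11 for Syn2 (SE, log2 scale; limma adjusted p = 0.00074), -0.67 ± 0.09 for Amph (adjusted p = 0.000532), -0.49 for Slc17a7, -0.44 for Pclo and -0.39 for Sh3gl2. These genes of vesicle clustering, filling, active zone scaffolding and endocytosis had risen in the cortex, and 3 of them, Syn2, Amph and Slc17a7, had also risen in the hippocampus by less. For the other 4 genes the effect was more positive in the hippocampus, at 0.79 ± 0.17 for Stx1a (adjusted p = 0.0146), 0.60 ± 0.13 for Syn3 (adjusted p = 0.0132), 0.49 for Syt7 and 0.46 for Cplx2. Cplx2 was called in opposite directions in the 2 regions, with log2 fold changes of -0.27 in cortex and 0.19 in hippocampus. Each of these Cplx2 calls was lost when some single libraries were left out. The difference itself passed the interaction test (limma adjusted p = 0.00986). Of the 9 interaction calls, that of Slc17a7 was lost in 1 leave-one-out fit (adjusted p = 0.0511 without hippocampus WT replicate 2). At PWK 14 the difference was called for 1 of the 36 genes, Unc13b (0.44 ± 0.11, adjusted p = 0.0386), beside 2.85% of all genes. This call was lost in 10 of the 16 leave-one-out fits.

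**Figure D3:**
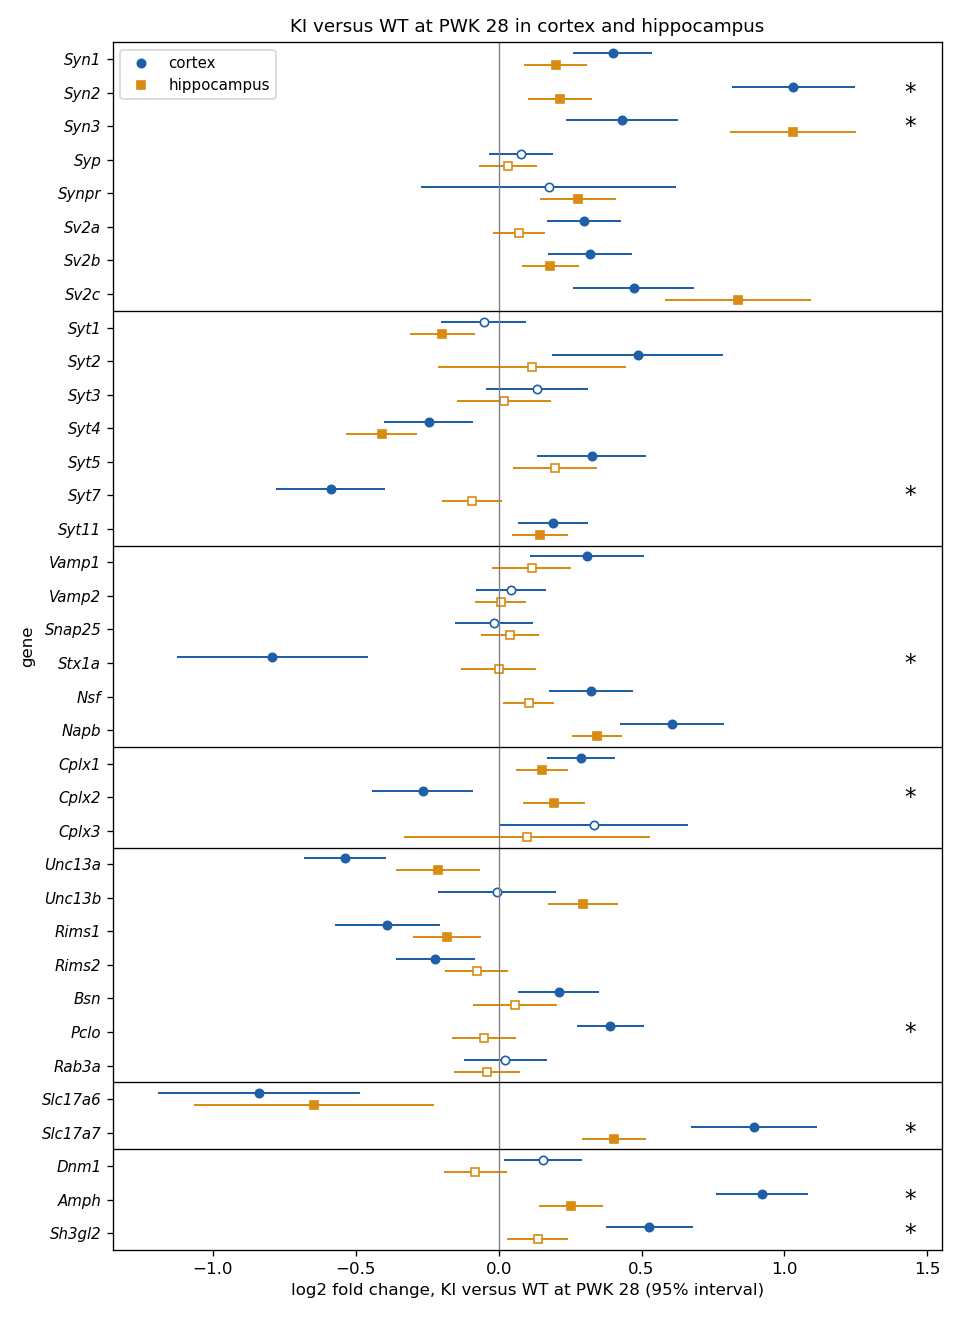
Log2 fold changes of KI against WT at PWK 28 (horizontal axis, with 95% intervals from limma, 4 KI and 4 WT libraries per region) for the 36 release genes (vertical axis, grouped by role), with circles for cortex and squares for hippocampus. Filled symbols are called at an adjusted p under 0.05, and asterisks mark the 9 genes whose KI effect differed between the regions. Cplx2 has filled symbols on opposite sides of 0, and Stx1a is at -0.79 in cortex and near 0 in hippocampus.

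The change of the KI effect from PWK 14 to PWK 28 was tested in the same way. No gene of the whole table was called in either region (background 0% in cortex and 0% in hippocampus, limma), although 14 of the 36 release genes in cortex and 4 in hippocampus had an unadjusted p under 0.05, beside 15.1% and 12.4% of all genes. In cortex the largest differences among these were -0.95 for Slc17a6 (adjusted p = 0.152), 0.60 for Slc17a7 (adjusted p = 0.125) and 0.54 for Syn2 (adjusted p = 0.139).

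Genes of the presynapse outside the 36 and of the postsynaptic density were taken from lists for comparison. The shares of all genes called higher and lower, against which these counts are to be read, were 2.48% and 2.70% in cortex at PWK 14, 12.2% and 10.0% in cortex at PWK 28, 7.64% and 7.95% in hippocampus at PWK 14, and 8.92% and 6.91% in hippocampus at PWK 28. Of 72 other presynaptic genes, 5 were higher and 4 lower in the KI cortex at PWK 14 (6.94% and 5.56%), and 29 and 9 at PWK 28 (40.3% and 12.5%). In the hippocampus the counts were 9 and 8 at PWK 14 (12.5% and 11.1%) and 19 and 9 at PWK 28 (26.4% and 12.5%). The 10 genes listed for the proton pump, which acidifies vesicles and so drives their filling, had 8 higher and 0 lower in cortex at PWK 28 (median log2 fold change 0.43) and 6 higher and 0 lower in hippocampus (0.18). Bulk tissue does not show in which cells or compartments these pump genes rose. The largest limma log2 fold changes of the 72 in cortex at PWK 28 were those of Syt6 (1.08) and Doc2a (0.85), higher, and of Cadps2 (-0.99) and Syt9 (-0.63), lower. In hippocampus at PWK 28 they were Slc32a1 (0.72), the transporter that fills vesicles with GABA, and Doc2a (0.67), higher, and Unc13c (-0.48) and Doc2b (-0.37), lower. The 29 postsynaptic scaffold genes had 0 higher and 8 lower at PWK 14 (median -0.19) and 3 and 7 at PWK 28 (median -0.13) in cortex, and 0 and 4 at PWK 14 and 3 and 3 at PWK 28 in hippocampus. As shares of the 29, these were 0% and 27.6% and 10.3% and 24.1% in cortex, and 0% and 13.8% and 10.3% and 10.3% in hippocampus.

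The normal course of these genes was read from WT mice. Between PWK 1 and PWK 7, 20 of the 36 rose and 7 fell in cortex, beside 32.5% and 32.7% of all genes, and 26 rose and 7 fell in hippocampus, beside 30.9% and 30.4%. The median log2 fold change was 0.30 and 0.31 for the 36 genes and 0.01 and 0.01 for all genes. The largest rise in both regions was that of Vamp1, from 552, 482, 616 and 625 to 3397, 3438, 3743 and 3728 in the 4 cortical libraries of each age (limma log2 fold change 2.66 ± 0.08, adjusted p = 1.52e-10) and from 719.6, 730.1, 795 and 723 to 3244, 3387, 3555 and 3401 in the hippocampal ones (log2 fold change 2.19 ± 0.05, adjusted p = 9.26e-11). Syt2 came next, from 237, 181, 395 and 446 to 1211, 1099.7, 1069 and 1457 in cortex (log2 fold change 2.02 ± 0.24, adjusted p = 1.19e-05) and from 240.0, 349, 421 and 637 to 753, 916, 982 and 1011 in hippocampus (log2 fold change 1.23 ± 0.23, adjusted p = 0.000773). For both genes and in both regions, every PWK 7 library exceeded every PWK 1 library. Vamp1 and Syt2 are known from fast inhibitory terminals. Markers of GABA neurons summed to 7909 to 11343 at PWK 1 and 17921 to 19007 at PWK 7 in cortex, and to 10758 to 11612 and 15564 to 17729 in hippocampus. Those of neurons in general (8 genes) were lower at PWK 7, at 119256 to 124810 against 185263 to 212566 at PWK 1 in cortex. In hippocampus they were at 107713 to 114391 and 158237 to 170821. The part of these marker changes in the values of the release genes was not tested. The fusion, recycling and vesicle genes Snap25 (1.46 in cortex and 1.06 in hippocampus on the log2 scale), Dnm1 (1.02 and 0.98), Nsf (0.69 and 0.85), Napb (0.66 and 0.58), Cplx1 (0.87 and 0.55) and Sv2b (0.96 and 0.42) also rose in both.

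The glutamate transporters moved in opposite directions during this period. Slc17a7 rose from 25604 ± 2725 to 43299 ± 1039 in cortex and from 26751 ± 1529.7 to 38731 ± 2511 in hippocampus. Slc17a6 fell from 1028, 1254, 1049 and 1097 to 279, 389.6, 321 and 349.7 in cortex (limma log2 fold change -1.73 ± 0.10, adjusted p = 2.81e-08) and from 2281, 1859, 2292 and 2247 to 357, 273, 758 and 629 in hippocampus (log2 fold change -2.22 ± 0.26, adjusted p = 2.21e-05). No library of PWK 7 reached a library of PWK 1. Other genes that fell in both regions were Syn3 (-0.87 in cortex and -1.48 in hippocampus), Sv2c (-1.24 and -0.62), Syt4 (-0.38 and -0.94), Amph (-0.47 and -0.18) and Unc13b (-0.19 and -0.30). Syn3 in hippocampus went from 722, 719, 763 and 879 to 290.3, 271, 292 and 246 (log2 fold change -1.48 ± 0.09, adjusted p = 6.34e-08), and Sv2c in cortex from 2805, 1969.8, 2100.4 and 2025 to 838, 905, 1007 and 989 (log2 fold change -1.24 ± 0.10, adjusted p = 6.03e-07). The first of the cortical Sv2c values at PWK 1 is from a library whose striatal markers summed to 10594, the highest of its group. Stx1a fell in hippocampus (log2 fold change -1.07 ± 0.08, adjusted p = 7.13e-07) and was not called in cortex (-0.12), a difference that was not tested. Without cortex replicate 1 of PWK 1, whose Stx1a value stood apart from its group, Stx1a fell in cortex too (-0.20, adjusted p = 0.000293), as it did with the GC content and length correction (-0.24, adjusted p = 0.0224). Vamp2 (-0.05 and 0.06), Syt5 (0.02 and -0.10) and Cplx3 (0.46 and 0.26) were called in neither region with all libraries. Cplx3 was called in cortex in 3 leave-one-out fits and Syt5 in hippocampus in 1. Oligodendrocyte markers (6 genes) summed to 7204 to 16716 at PWK 1 and 144799 to 183853 at PWK 7 in cortex, and their part in these changes was not tested.

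**Figure D4:**
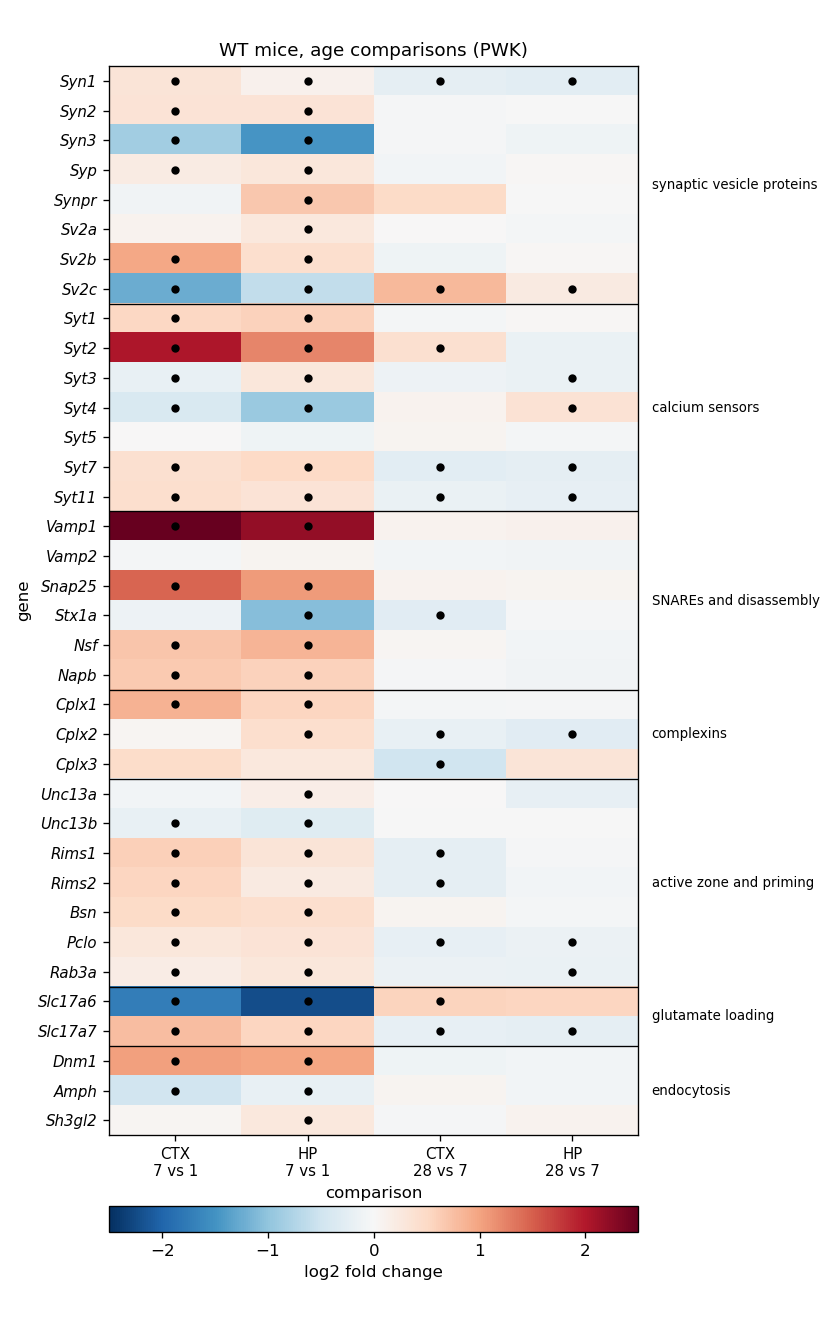
Log2 fold changes (colour scale, log2) of the 36 release genes (rows, grouped by role) in WT mice for PWK 7 against PWK 1 and PWK 28 against PWK 7 in cortex (CTX) and hippocampus (HP), with 4 libraries per age. Dots mark genes called at an adjusted p under 0.05, and the deepest colours are the rise of Vamp1 and the fall of Slc17a6 between PWK 1 and PWK 7. The colour of Vamp1 in cortex, whose value was 2.66, stands at the end of the scale.

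Between PWK 7 and PWK 28 the WT levels changed less. In cortex 3 of the 36 genes rose and 10 fell, beside 10.9% and 11.4% of all genes, and in hippocampus 2 rose and 8 fell, beside 6.35% and 8.38%. The lower genes numbered 6 and 4 in the fit of all 64 libraries, for which no share of all genes is given here. Sv2c rose in both regions (0.81 in cortex and 0.23 in hippocampus, limma log2 fold change), Syt2 (0.40) and Slc17a6 (0.56) in cortex and Syt4 (0.36) in hippocampus. Striatal markers (6 genes) summed to 3868 to 5876 at PWK 7 and 4512 to 9152 at PWK 28 in the WT cortex. In the WT hippocampus the sums were 1889 to 3148 and 2069 to 2848. Their part in the Sv2c result was not tested. Those that fell in both regions were Syn1, Syt7, Syt11, Cplx2, Pclo and Slc17a7, with log2 fold changes between -0.29 and -0.16. Slc17a7 thus went from 43299 ± 1039 to 37780.5 ± 2267 in the WT cortex, while the KI cortex at PWK 28 stood at 70649 ± 9835. This comparison shares its PWK 7 libraries with that of PWK 7 and PWK 1, and its PWK 28 libraries with the genotype comparison.

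The regions differed in WT mice at every age. In hippocampus relative to cortex, 4 genes were higher and 19 lower at PWK 1 (beside 16.1% and 18.6% of all genes), 6 and 21 at PWK 7 (20.4% and 20.4%), 7 and 22 at PWK 14 (17.0% and 17.6%) and 6 and 23 at PWK 28 (18.8% and 19.0%). The median log2 difference of the 36 genes was -0.18, -0.19, -0.23 and -0.23 at these ages. With the same total in every library that of PWK 1 was -0.09. The median of all genes was then 0.09, moved by 0.10 from its value without this scaling. The largest differences were in Cplx3 and Stx1a. Cplx3 was at 69.0, 70.6, 262 and 205 in the 4 hippocampal libraries of PWK 7 and at 490.4, 593, 701 and 749 in the cortical ones (limma log2 fold change -2.29 ± 0.39, adjusted p = 0.00059). Stx1a was at 1973, 2194, 2589.6 and 2024 and 8945, 8569, 8734 and 8742 (log2 fold change -2.0 ± 0.07, adjusted p = 4.59e-09). For both genes every cortical library exceeded every hippocampal one, and at PWK 28 the log2 differences were -1.46 and -1.73.

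Genes called lower in hippocampus at all 4 ages besides these were Syn1, Sv2a, Syt1, Syt4, Syt5, Vamp2, Snap25, Unc13b, Rims1, Rims2, Bsn, Pclo and Sh3gl2. Among them Rims2 had log2 differences of -0.57, -0.87, -0.81 and -0.72 in order of age, and Rims1 of -0.46, -0.73, -0.65 and -0.52. Syn3 (-0.80 at PWK 28) and Sv2b (-0.38) were lower from PWK 7 on. Syn2 and Nsf were higher in hippocampus at all 4 ages, Syn2 with 17702 ± 539 against 14668 ± 188 at PWK 7 and Nsf with 34616 ± 1271 against 24359.8 ± 509. Slc17a6 was higher in hippocampus at PWK 1, at 2281, 1859, 2292 and 2247 against 1028, 1254, 1049 and 1097 (log2 fold change 0.97 ± 0.08, adjusted p = 4.53e-06), and Synpr at PWK 7, at 3758, 3814, 3434 and 3593 against 2655, 2328, 2204 and 2361 (log2 fold change 0.61 ± 0.06, adjusted p = 6.79e-06). Dnm1, Syt11 and Syp were called at no age with all libraries. Sv2c changed sides, lower in hippocampus at PWK 1 and PWK 28 and higher at PWK 14 (0.25), where the call was lost without hippocampus WT replicate 1 (adjusted p = 0.0513). The striatal marker sums were lower in WT hippocampus than in WT cortex at each of these ages, without overlap. Their part in the Sv2c result was not tested. Other regional calls that were lost in single leave-one-out fits had small log2 differences, such as Napb at PWK 28 (-0.18) and Rab3a at PWK 1 (-0.19).

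**Figure D5:**
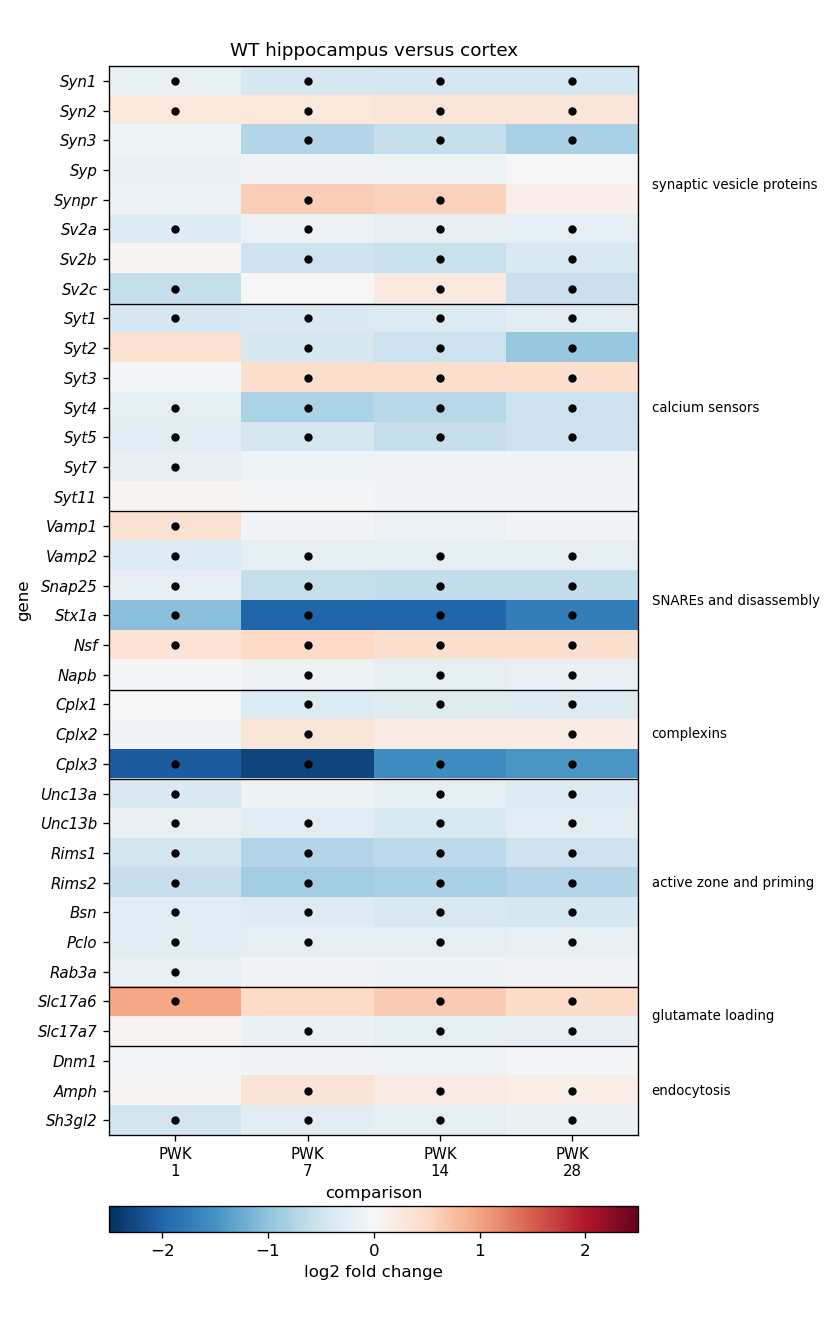
Log2 differences between hippocampus and cortex (colour scale, log2; red is higher in hippocampus) of the 36 release genes (rows, grouped by role) in WT mice at PWK 1, 7, 14 and 28 (columns, 4 libraries per region and age). Dots mark genes called at an adjusted p under 0.05, and Stx1a and Cplx3 have the deepest blue at every age.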

How the data were processed

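RNA levels were measured by stranded paired-end RNA sequencing of 64 libraries, grouped by the sample labels into 16 groups of 4. The deposited table holds a normalized signal: the authors quantified transcripts with Salmon on GRCm38 and scaled the estimated gene counts with DESeq2 over all libraries (Salmon 0.11.2, DESeq2 1.19.11 and R 3.6.0 in the submitters' processing notes). Such scaling makes the library totals alike, so that depth cannot be read from them, and low values are not whole reads. Of 18432 gene IDs, 18420 matched the GENCODE annotation of GRCm38, which gave symbols, positions and exon lengths.

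Genes with a mean of at least 1 in the libraries of a comparison were tested with limma-trend (limma 3.58.1, R 4.3.3) on log2(value + 1), with Benjamini-Hochberg adjustment over all genes tested and a threshold of 0.05. Fold changes are on this scale, which understates changes of low genes. The procedure was tested on simulated data. Interactions used the 16 libraries involved. The plan named a count model for raw counts, and the limma fit it named otherwise was used, since the table holds no raw counts. The 36 genes and the comparison lists were chosen with earlier results of these data known. All 36 genes are named. Values of every library are given for up to 2 higher and 2 lower called genes of largest fold change per late genotype comparison, and likewise for maturation and region, and of the other presynaptic genes up to 2 per direction. Cyfip2 and Gfap are named as edited gene and astrocyte marker. Slc17a7 was added after its values were seen. Neither the labels nor the study's methods say what replicate numbers mark or whether both regions came from the same mice, so that p-values measure the spread between these libraries. Promoters came from RefSeq on GRCm38.p6, 1 per gene, the most upstream where several were listed. No protein sequence was used here.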

Additional observations from a re-analysis of the deposited data

Results flagged for a closer look

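The KI effect differed between hippocampus and cortex, by limma's interaction test, for Unc13b at PWK 14 (hippocampus minus cortex 0.44 on the log2 scale) and at PWK 28 for Syn2 (-0.82), Syn3 (0.60), Syt7 (0.49), Stx1a (0.79), Cplx2 (0.46), Pclo (-0.44), Slc17a7 (-0.49), Amph (-0.67) and Sh3gl2 (-0.39). The values and tests stand with the comparison of the regions above.

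Among 576 groups of 4 libraries, 1 for each release gene and group, 37 held a library whose gap to its nearest neighbour exceeded Dixon's 95% critical value for 4 samples (6.42%, where chance gives about 1 in 20). Several libraries held more than 1 of these values. In hippocampus WT replicate 2 at PWK 1, these were Sv2b at 10524 (nearest 11738), Snap25 at 21717 (nearest 23732), Rab3a at 9830.1 (nearest 10583), Slc17a6 at 1859 (nearest 2247) and Sh3gl2 at 6603 (nearest 7151). In cortex KI replicate 2 at PWK 7, these were Syt1 at 57372 (nearest 62827), Syt5 at 3318 (nearest 3933) and Syt11 at 23411 (nearest 24463). In hippocampus KI replicate 1 at PWK 14, these were Sv2a at 10929 (nearest 11630.2), Sv2c at 8045 (nearest 2932) and Rims1 at 3335 (nearest 4957). In cortex WT replicate 1 at PWK 1, these were Sv2c at 2805 (nearest 2100.4) and Stx1a at 8029 (nearest 9889.9). In cortex WT replicate 3 at PWK 1, these were Syt11 at 18887 (nearest 17757) and Napb at 12053 (nearest 10953). In cortex WT replicate 1 at PWK 28, these were Sv2b at 18256 (nearest 20895) and Sh3gl2 at 8817 (nearest 10401). In cortex WT replicate 4 at PWK 7, these were Syt3 at 1471 (nearest 1402) and Rab3a at 14272 (nearest 13294). In hippocampus WT replicate 3 at PWK 7, these were Syt4 at 5381 (nearest 4168) and Napb at 16874 (nearest 15939).

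The other values were single ones in a library. In the cortex KI group at PWK 14, Cplx3 was at 743 in replicate 2 (nearest 553) and Sh3gl2 was at 14892 in replicate 1 (nearest 11144). In the cortex WT group at PWK 14, Unc13b was at 3039 in replicate 4 (nearest 2872). In the cortex KI group at PWK 1, Syt7 was at 10741 in replicate 4 (nearest 9738) and Rab3a was at 11402 in replicate 2 (nearest 12379). In the cortex KI group at PWK 28, Slc17a6 was at 384 in replicate 2 (nearest 253). In the cortex WT group at PWK 28, Rims2 was at 3478 in replicate 2 (nearest 3745). In the cortex KI group at PWK 7, Synpr was at 3727 in replicate 1 (nearest 2309). In the cortex WT group at PWK 7, Dnm1 was at 31519.9 in replicate 1 (nearest 33988). In the hippocampus KI group at PWK 14, Syt3 was at 1696 in replicate 2 (nearest 1419) and Slc17a6 was at 474 in replicate 4 (nearest 259). In the hippocampus KI group at PWK 1, Unc13b was at 2749 in replicate 1 (nearest 2569). In the hippocampus WT group at PWK 1, Vamp1 was at 795 in replicate 3 (nearest 730.1). In the hippocampus KI group at PWK 28, Slc17a6 was at 269 in replicate 2 (nearest 495). In the hippocampus WT group at PWK 28, Cplx3 was at 213 in replicate 1 (nearest 148). In the hippocampus WT group at PWK 7, Unc13a was at 15941 in replicate 2 (nearest 13294). In the hippocampus KI group at PWK 14, replicate 1 with its Sv2c value is the library described above as standing apart, and the striatal marker sum of the cortex WT library of PWK 1 with the high Sv2c was the highest of its group. No explanation of these values was tested.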

How the results depend on the processing

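The alternatives were a pseudocount of 8, a minimum mean of 30, scaling to the same total in every library, a GC content and length correction, 1 fit of all 64 libraries, the replicate number as a block, and the omission of each library in turn. No release gene that was called changed direction under any of them. The share of all genes called is not given for these alternatives, so that the counts below cannot be read against it. The fit of all 64 libraries, which shares 1 spread between all groups, called 13 (7 higher, 6 lower) release genes in cortex and 18 (8 higher, 10 lower) in hippocampus between the genotypes at PWK 14, 8 (2 higher, 6 lower) and 5 (1 higher, 4 lower) between PWK 28 and PWK 7 in WT cortex and hippocampus, 10 (3 higher, 7 lower) for the KI effect between regions at PWK 14, and 5 (5 higher, 0 lower) in cortex and 1 (1 higher, 0 lower) in hippocampus for the KI effect between PWK 28 and PWK 14. The GC content and length correction left 6 (2 higher, 4 lower) between PWK 28 and PWK 7 in WT hippocampus, and the same total gave 3 (0 higher, 3 lower) for the KI effect between regions at PWK 14, where the call of Unc13b was lost under both corrections. With 1 library left out, the number of release genes called between the genotypes was 3 to 8 in cortex and 4 to 11 in hippocampus at PWK 14, and 18 to 25 and 10 to 20 at PWK 28. In cortex at PWK 14 it was 3 without KI replicate 2 or WT replicate 1 and 4 without WT replicate 2 or 3. In hippocampus at PWK 14 it was 5 without KI replicate 3 and 4 without WT replicate 1 or 2, and at PWK 28 it was 10 without WT replicate 1 or 4. It was 10 to 15 in cortex and 6 to 10 in hippocampus between PWK 28 and PWK 7 in WT (6 without hippocampus replicate 1 or 4 of PWK 28 or replicate 1 of PWK 7), 0 to 2 and 8 to 14 for the KI effect between regions at PWK 14 and PWK 28, and 0 to 6 in cortex and 0 in every hippocampal fit between the ages. The 14 came without cortex KI replicate 2 of PWK 28, and the 6 between ages in cortex without that library or without KI replicate 1 of PWK 14. The 0 at PWK 14 between regions came without cortex KI replicate 2 or 3 or any cortex WT replicate, or without hippocampus KI replicate 3 or WT replicate 1, 2 or 4, and the 2 without cortex KI replicate 1, hippocampus KI replicate 2 or 4, or hippocampus WT replicate 3.

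Scaling moved the share of higher among all calls by over 10 percentage points in some comparisons. With the same total it was 60.4% against 47.8% in cortex at PWK 14 (release genes 3 and 3, higher and lower), 43.7% against 54.8% in cortex at PWK 28 (15 and 8), 40.6% against 56.3% in hippocampus at PWK 28 (11 and 5), 59.8% against 48.8% and 56.9% against 43.1% between PWK 28 and PWK 7 in WT cortex and hippocampus (4 and 9, and 4 and 6) and 66.6% against 46.3% between regions at PWK 1 (6 and 15). With the GC content and length correction it was 34.4% against 49.0% and 44.5% against 56.3% in hippocampus at PWK 14 and PWK 28 (3 and 4, and 8 and 5) and 35.9% against 46.3% between regions at PWK 1 (4 and 20). Samples with the same replicate number in both regions had a mean correlation of 0.14 over 12819 genes, with 17 of 32 pairs over 0.1, against -0.0461 and 12 of 96 pairs for different numbers, and 38 of 64 libraries correlated best with their own number in the other region. Since not every pair passed 0.1 and no source states a pairing, the number was used as a block only as an alternative. The tests between regions above thus treated the libraries as independent, which would not hold if the numbers mark mice. With it as a block, 4 (4 higher, 0 lower) release genes were called in hippocampus at PWK 14, where Syt1 (limma adjusted p = 0.0637), Syt3 (0.0529), Slc17a6 (0.0601) and Napb (0.11) were no longer called. At PWK 28 in hippocampus it called 14 (11 higher, 3 lower), without Slc17a6 (0.0614), Rims1 (0.0779), Cplx1 (0.0611) and Syt11 (0.101). For the KI effect between regions at PWK 14 the block exchanged the 1 call, since Unc13b was lost (0.0649) and Slc17a6 was called (hippocampus minus cortex -1.04, adjusted p = 0.00464). The total counts of release genes in the other comparisons stayed within 1.5 times, though single calls changed. The depth of the libraries was not given in the table, so that precision rests on the spread of 4 libraries.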
